A study of Mus musculus with 12 samples.

Results

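The place of de novo CpG methylation along the mouse genome was compared between lines rescued with DNMT3A and lines rescued with DNMT3B. Of the 12 enhanced reduced representation bisulfite sequencing (eRRBS) libraries of the series, 4 were used for this comparison: WT DNMT3A replicates 1 and 2 and WT DNMT3B replicates 1a and 2a. The members were chosen by the labels of the libraries and not by their methylation. All lines were TKO mouse ES cells, in which Dnmt1, Dnmt3a and Dnmt3b are knocked out. They had been transfected with the pPyCAGIZ vector carrying the human WT enzyme (DNMT3A1 or DNMT3B1) and selected in Zeocin, and the lines of each enzyme were derived independently. In each line all CpG sites of chromosomes 1 to 19 with at least 1 read were taken, which were 6162507 and 5011477 sites with DNMT3A and 4982816 and 1005962 sites with DNMT3B, of 20383623 autosomal CpG sites in all. Another pair of WT DNMT3B lines, replicates 1b and 2b, is given beside them where it bears on a result. The study followed bisulfite conversion with an unmethylated lambda DNA spike-in. The spike-in was not analysed here, and the libraries used include none of cells with an empty vector. CpG methylation gives no check of the 3 knockouts or of the amount of each enzyme.

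DNMT3A and DNMT3B are the enzymes that set DNA methylation on unmethylated DNA, and DNMT1 copies it after replication. Both carry a PWWP domain, which reads methylated lysine 36 of histone H3, and an ADD domain, which binds the unmodified tail of histone H3. In normal cells CpG islands at transcription starts stay largely unmethylated, whereas gene bodies, intergenic DNA and dispersed repeats are methylated. As TKO cells have no DNMT1, methylation that is lost at replication has to be set again by the enzyme that was put back.

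The DNMT3A lines carried 35.6% and 35.9% CpG methylation as a mean over covered sites (35.7% ± 0.145, SD, n = 2), and the DNMT3B lines 16.4% and 15.3% (15.8% ± 0.797, SD, n = 2). Every DNMT3A line was thus more methylated than every DNMT3B line, and the means had a ratio of 2.26. With 2 lines against 2, the two-sided exact permutation test gives p = 0.33, the smallest p this design allows, so the comparisons of single levels below rest on the lines themselves. By the same count, a random order of the 4 lines would leave the enzymes without overlap at a share of 0.33 of features. The other DNMT3B lines, 1b and 2b, stood at 13.8% and 12.7%. To compare where methylation lay rather than how much there was, each class of sites was set against the line's own overall level. This relative level is the log2 odds of methylation of the class minus the log2 odds over all covered autosomal sites of that line, and the ratio of the plain levels is given beside it.

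Library DNMT3B 2a stood apart. It had the fewest reads (15916823, against 20073622 to 26136912), and they lay on far fewer sites, with a mean of 15.8 reads per covered site against 4.03 to 5.22. Sites in CpG-dense sequence made up 12.3% of its covered sites, against 9.75% to 10.5%, and soft-masked repeats 17.3% against 15.1% to 15.6%. Only 466863 sites were covered in all 4 lines. Several results are therefore also given without this line. Its part in the spread between the DNMT3B lines was not tested otherwise.

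The clearest differences in place were found between repeated sequences. The reference sequence was searched for 30-bp sequences centred on a CpG that recur at 20 or more autosomal CpG sites, and 343 of 13096 such sequences had at least 20 covered sites in each line. Of these, 78 (22.7%) passed the threshold of an adjusted p of 0.05 in limma on the centred log2 odds. Relative to the line's own level, 30 (8.75%) were higher with DNMT3A and 48 (14%) were lower. The split was 23 and 67 on log2 levels and, with the overall difference left in, 187 and 1. The lines of the 2 enzymes did not overlap at 244 of the 343 (71.1%). The sequences share bases, so the 78 fall into 36 groups that overlap by at least 15 bases, out of 115 groups tested, and the largest group held 14 of them. All copies of all 343 sequences lay in soft-masked repeats. The 10 with the largest changes are shown because they differ by the bases next to the CpG, which is in capitals. Each is written 5′ to 3′ as in RefSeq GRCm38, with the position and strand of 1 of its copies.
L1, chr1:48498254-48498283, minus strand: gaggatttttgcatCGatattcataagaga
L2, chr1:40195398-40195427, plus strand: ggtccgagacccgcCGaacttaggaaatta
L3, chr1:45162157-45162186, minus strand: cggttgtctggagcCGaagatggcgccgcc
L4, chr1:30043351-30043380, minus strand: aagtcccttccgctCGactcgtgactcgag
L5, chr1:40195505-40195534, plus strand: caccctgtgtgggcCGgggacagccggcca
H1, chr1:27197397-27197426, plus strand: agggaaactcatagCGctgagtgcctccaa
H2, chr1:95783655-95783684, plus strand: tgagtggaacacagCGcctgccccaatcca
H3, chr2:31054872-31054901, plus strand: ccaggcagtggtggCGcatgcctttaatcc
H4, chr1:4853103-4853132, plus strand: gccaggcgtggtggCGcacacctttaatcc
H5, chr2:70074720-70074749, minus strand: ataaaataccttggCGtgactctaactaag

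L1 to L5 were relatively lower with DNMT3A and H1 to H5 relatively higher. In L1 to L5 the CpG is followed by A or G and preceded by C or T, and in H1 to H5 it is preceded by G. H3 and H4 are sequences of B1, a family of short interspersed elements derived from a small cytoplasmic RNA gene. The copies shown of H3, H4 and H5 lie in introns and the other copies lie outside genes. The families of the other sequences were not looked up, as no repeat annotation was used here.

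L1 has 5163 copies in the catalogue and was methylated at 13% and 11.7% with DNMT3A and at 24.6% and 33.9% with DNMT3B. It thus carried more methylation with DNMT3B, although DNMT3B methylated the genome less, and its change was -3.03 on the log2 odds scale (SE 0.38, adjusted p = 0.0233, limma). The values come from 97 to 150 sites per line.
L2 stood at 11.7% and 20.3% with DNMT3A and at 24.9% and 36.5% with DNMT3B (change -2.75, adjusted p = 0.027). L5, whose copy shown lies beside that of L2 on the same strand, stood at 19.6% and 28.6% with DNMT3A and at 33.7% and 39.6% with DNMT3B (change -2.39, adjusted p = 0.0233). In L1, L2 and L5 both DNMT3B lines lay above both DNMT3A lines in plain methylation, whereas 1b and 2b, at 17.97% and 18.05% in L2 and 26.8% and 29.3% in L5, overlapped with the DNMT3A lines in both. The order of 1a and 2a was also found for L4, with 20.1% and 18.7% against 23.8% and 40.2% (change -2.43, adjusted p = 0.027).
L3 differed from these in that the plain levels overlapped, at 5.38% and 9.28% with DNMT3A and 19.9% and 9.16% with DNMT3B (change -2.60, adjusted p = 0.0307). Its centred values did not overlap. Across all 343 sequences, 20 were methylated more in both DNMT3B lines than in both DNMT3A lines, and all 20 were among the 48 called. In 8 of the 20 both DNMT3B 1b and 2b also lay above both DNMT3A lines.

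The 5 sequences at the other end were all below the overall level of the line with DNMT3B. H2 was methylated at 41.2% and 35.5% with DNMT3A and at 4.34% and 1.64% with DNMT3B, over 126 to 443 sites per line (change 2.82, SE 0.50, adjusted p = 0.0268, limma). H1 stood at 50.0% and 50.4% against 8.38% and 0.968% (change 2.83, adjusted p = 0.0469), over 35 to 43 sites. In both, the DNMT3B levels were far below the line's overall level, and the DNMT3A levels were above it but for H2 in replicate 2 (35.5% against 35.9%).
The B1 sequences H3 and H4 were among the most methylated with DNMT3A. H3 stood at 57% and 59.8% with DNMT3A and at 9.59% and 6.41% with DNMT3B (change 2.39, SE 0.26, adjusted p = 0.0233, limma), and H4 at 58.0% and 62.5% against 8.44% and 9.16% (change 2.30, adjusted p = 0.0233). They share bases and are not independent. H5 stood at 36.0% and 40.8% against 4.47% and 3.52% (change 2.26, adjusted p = 0.0233).
Set against DNMT3B 1b and 2b in place of 1a and 2a, with the same DNMT3A lines, the changes of L1 to L5 were -2.53, -2.16, -2.95, -2.12 and -2.22, and those of H1 to H5 were 3.26, 2.28, 2.06, 2.07 and 1.75.

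Neighbouring CpG sites of 1 repeat could differ in opposite directions. This was seen in 1 of the 36 groups, the one that holds H5, and the pair below was picked after its values were seen. The pair is shown because both windows come from the same element, and the CpG sites in capitals are separated by a single base.
N1: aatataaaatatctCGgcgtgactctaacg
N2: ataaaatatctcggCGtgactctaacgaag

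N1, with 1864 copies, stood at 39.1% and 29.6% with DNMT3A and at 35.2% and 42.9% with DNMT3B (change -1.80, SE 0.34, adjusted p = 0.027, limma). N2, with 1866 copies, stood at 46.7% and 51.7% with DNMT3A and at 11.5% and 4.39% with DNMT3B (change 1.86, SE 0.44, adjusted p = 0.0402, limma). The plain levels of the enzymes overlapped at N1 and were separated at N2. The values come from 30 to 51 sites per line.

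The called sequences were sorted by the base on either side of the CpG, with both strands merged. Of the 31 sequences with a GCGC centre, 12 were called higher with DNMT3A and none lower, with a median change of 1.37. Their median levels were 41.2% and 39% with DNMT3A and 8.93% and 7.14% with DNMT3B. ACGC followed with 9 of 45 higher and none lower (median change 0.79). Most of the called GCGC and ACGC sequences belong to the largest overlap group, which holds the B1 sequences H3 and H4. All 14 called sequences of that group have a GCGC or ACGC centre. They share bases, as do other sequences counted here, so the counts by centre are not counts of independent sequences.
At the other end, 19 of 48 sequences with CCGG, 13 of 31 with CCGA and 8 of 21 with TCGA were called lower with DNMT3A and none higher, with median changes of -1.22, -1.22 and -0.89. CCGG is also the MspI site at which the eRRBS fragments end. The median CCGG levels were 28.8% and 27.5% with DNMT3A and 24.4% and 23.7% with DNMT3B, so the enzymes came close to the same plain methylation there. CCGC sequences, the most numerous with 63 tested, went both ways, with 4 higher and 3 lower.
The remaining centres held few calls. They were 2 higher and 1 lower of 28 for ACGA, 1 higher and 4 lower of 36 for ACGG, 1 higher of 11 for ACGT and 1 higher of 29 for GCGA.

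The changes at repeats were then set beside those of single-copy sites with the same flanking bases. For each sequence, the change expected from its own lines was computed from single-copy sites with the same 2 bases on either side and the same CpG density. Across the 343 sequences, the measured change and this expected change had a Pearson's r of 0.74, as a description over sequences that overlap and share the 4 lines. At the 10 sequences above both had the same sign. L1 had an expected change of -2.25 and H1 of 1.86, whereas H5 had 0.46 against its measured 2.26.
When the test was repeated on the difference between measured and expected values, 0 of 343 sequences passed in limma, with 70 at an unadjusted p below 0.05. With the expected level taken from all sites rather than single-copy sites it was 0 of 343, with 65 below 0.05. Both of these fits were chosen after the data had been seen. No other test was run on these differences.

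**Figure D1:**
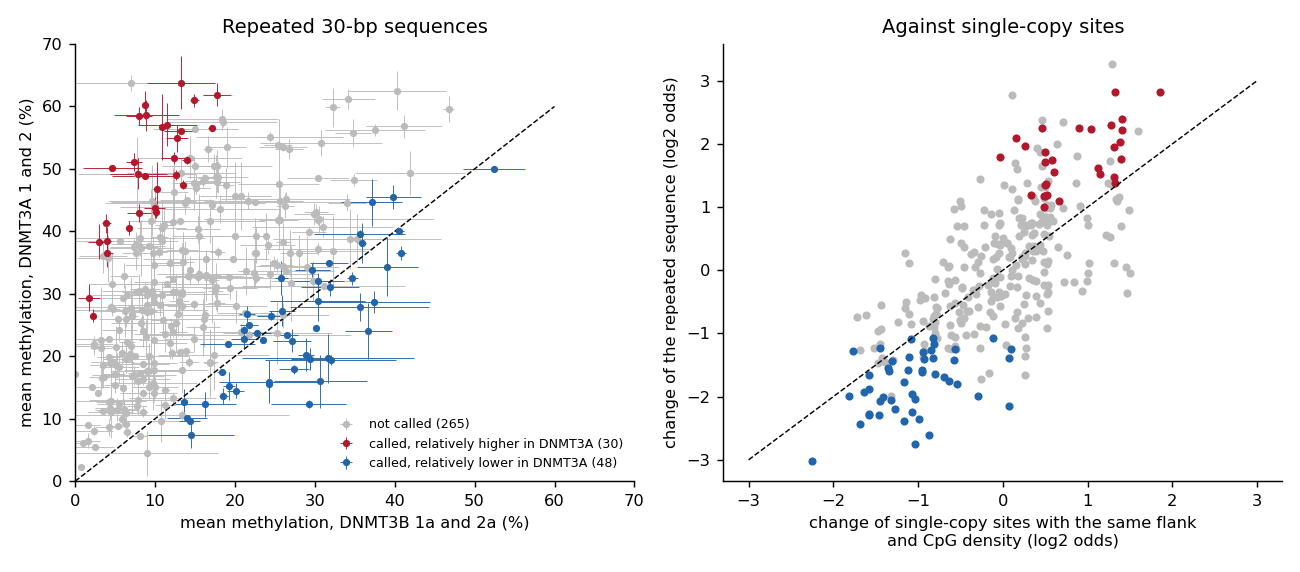
Left, mean CpG methylation (%) of 343 repeated 30-bp sequences in the DNMT3A lines (y axis) and in DNMT3B 1a and 2a (x axis), with bars from the lower to the higher line and a dashed line of equal methylation. Right, the change of each sequence between enzymes (log2 odds, centred) against the change of single-copy sites with the same flank and CpG density, with a dashed line of equal change. The 30 sequences called relatively higher with DNMT3A are red and the 48 called lower are blue. Of the blue ones, 20 lie with both DNMT3B lines above both DNMT3A lines. On the right the red and blue sequences lie on opposite sides of no change on the y axis by definition.

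The 78 calls depended on which lines entered the fit. Without DNMT3A replicate 1 or replicate 2 there were 0 calls, with 69 and 70 of 343 sequences at an unadjusted p below 0.05, and edgeR's quasi-likelihood test on summed reads of all 4 lines called 28 of 343. Without DNMT3B 2a there were 327 calls among 1067 sequences tested and without DNMT3B 1a 208 among 346. With a single DNMT3B line left, the spread between lines comes from the DNMT3A lines alone, so these counts cannot be compared with the 78. The pooled SD was 0.299 between DNMT3A lines and 0.768 between DNMT3B lines. In each fit named here all 78 kept their direction. Where a line was left out, this was largely fixed in advance. At each of the 78 both centred DNMT3A lines already lay on 1 side of both DNMT3B lines. Only some copies of a repeat were read, and the median sequence had 1126 copies but 45 to 159 covered sites per line. Reads have to map to 1 place, but single-copy sites were not all covered either (5589965 of 16715894 in DNMT3A replicate 1). The cause of the low coverage of repeats was not tested.

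As a class, repeats differed little from unique sequence. Soft-masked sites were methylated at 36.4% and 36.2% with DNMT3A and at 17.6% and 15.8% with DNMT3B, and other sites at 35.5% and 35.8% against 16.2% and 15.2%. The log2 odds of repeats over unique sequence were 0.053 and 0.027 with DNMT3A and 0.14 and 0.068 with DNMT3B, a difference of -0.066 ± 0.056 (SD over lines; exact permutation p = 0.33). It was -0.10 without DNMT3B 2a, -0.028 without DNMT3B 1a and -0.030 when CCGG sites were left out. At sites with at least 10 reads it was 0.080, the opposite direction.
Sites whose 30-bp sequence has 100 or more copies stood at 33.1% and 32.8% with DNMT3A, below the line's overall level, and at 17.9% and 14.5% with DNMT3B. The DNMT3B lines lay on opposite sides of their own overall level here. The difference in relative level was -0.21 ± 0.17 (SD over lines, exact permutation p = 0.33), and it was -0.33 without DNMT3B 2a, -0.094 without DNMT3B 1a, -0.40 at sites covered in all 4 lines and -0.11 when CCGG sites were left out.
Soft-masked and unique sites were both closer between enzymes where the sequence was dense in CpG. Among soft-masked sites with 12 or more CpG sites in 200 bp the ratio of DNMT3A to DNMT3B was 1.52 (14.6% and 15.0% against 9.47% and 10.0%), and among unique sites of that density it was 1.68 (2.43% and 2.49% against 1.48% and 1.45%).

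Methylation fell in CpG-dense sequence with both enzymes and fell further with DNMT3A, so that the enzymes came close to each other. At sites with 4 to 5 CpG sites in the surrounding 200 bp, levels were 41.3% and 41.3% with DNMT3A and 18.8% and 17.6% with DNMT3B, a ratio of 2.27. The 5 density classes from 1 to 7 CpG sites had ratios from 2.24 to 2.27, near the overall 2.26. At 8 to 11 CpG sites the levels were 26.8% and 26.8% against 12.8% and 12%, a ratio of 2.16.
At 12 or more CpG sites, methylation was 3.52% and 3.67% with DNMT3A and 2.18% and 2.93% with DNMT3B. All lines were far below their overall level, and the ratio over the pairs of lines ran from 1.2 to 1.68. The relative level was lower with DNMT3A by 1.04 ± 0.40 (SD over lines, n = 2 against 2, exact permutation p = 0.33), as the values of -3.92 and -3.88 against -3.14 and -2.58 show. It was -0.76 without DNMT3B 2a and -1.32 without DNMT3B 1a.

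CpG islands were the least methylated class with either enzyme. In the GRCm38 sequence 14160 autosomal islands were found, of which 10442 lie at a transcription start, 2556 inside genes and 1162 between genes. Island sites were methylated at 1.34% and 1.43% with DNMT3A and at 1.01% and 1.14% with DNMT3B, a ratio of 1.29. The relative level differed by -1.19 ± 0.23 (SD over lines, exact permutation p = 0.33), and both DNMT3A lines lay below both DNMT3B lines. Measured against sites with the same flank and CpG density the difference was -0.48, and on the log2 scale of the level it was -0.81.
Islands at starts stood at 0.760% and 0.850% with DNMT3A and at 0.707% and 0.728% with DNMT3B, so the plain levels were close. At levels this low, the share that incomplete conversion adds to each line was not tested. Islands inside genes held 4.34% and 4.54% against 2.46% and 2.75% (ratio 1.71), and those between genes 6.29% and 6.4% against 4.14% and 5.32% (ratio 1.34).

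Next to islands the result depended on the scale and on the distance. In the first 0.25 kb outside an island methylation was 6.51% and 6.53% with DNMT3A and 2.79% and 2.80% with DNMT3B, a ratio of 2.33, but the relative level was lower with DNMT3A by 0.29 ± 0.092 (SD over lines) and did not overlap. From 0.25 to 0.5 kb outside an island methylation was 13.4% and 13.2% with DNMT3A and 4.89% and 5.08% with DNMT3B, a ratio of 2.67, and from 0.5 to 1 kb it was 23.1% and 22.8% against 8.92% and 8.94%, a ratio of 2.57. On the odds scale the lines overlapped in both of these zones, with differences of -0.017 and 0.036. From 1 to 2 kb the DNMT3A lines were relatively higher on both scales, with 33.9% and 33.9% against 13.7% and 13%, a ratio of 2.54 and a difference of 0.17 ± 0.021 (SD over lines). Beyond 4 kb the ratio was 2.23 to 2.27. Against DNMT3B 1b and 2b the differences of the 4 zones up to 2 kb were -0.46, -0.11, -0.028 and 0.096.

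**Figure D2:**
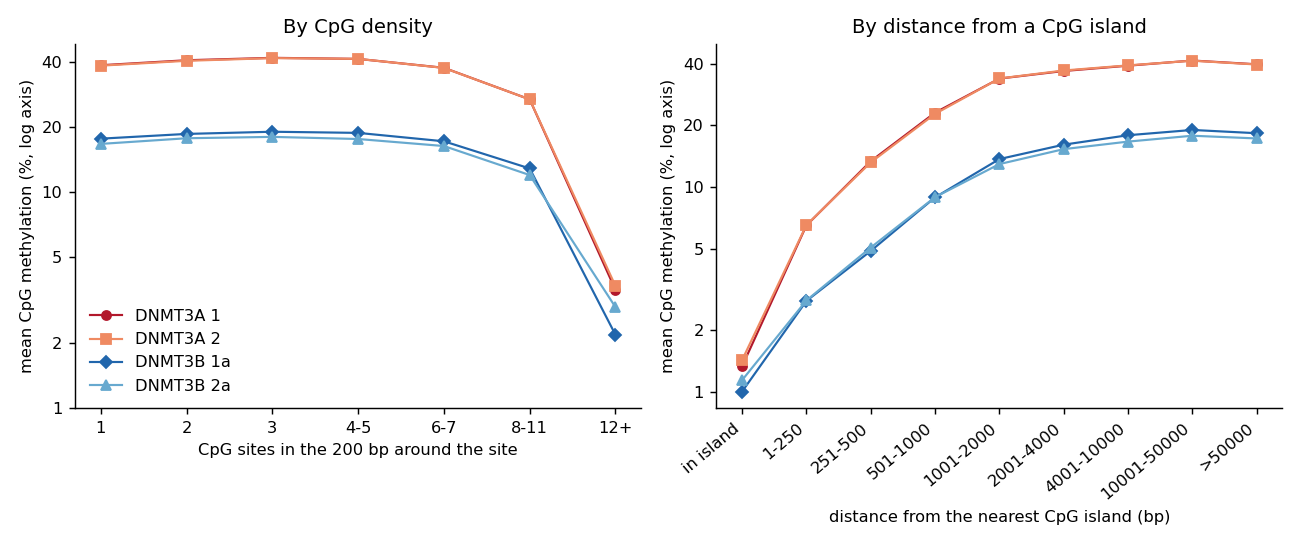
Mean CpG methylation (%, log axis) of each line by the number of CpG sites in 200 bp (left) and by distance from the nearest CpG island (right), for DNMT3A 1 and 2 (red) and DNMT3B 1a and 2a (blue). The lines of each enzyme run together except at 12 or more CpG sites, and the distance between the enzymes shrinks to 1.34% and 1.43% against 1.01% and 1.14% inside islands.

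Among 4106 islands tested one by one, 0 passed in limma (0%), with 220 at an unadjusted p below 0.05, and edgeR called 1. The lines did not overlap at 1413 (34.4%), near the share of 0.33 that a random order of the lines gives. The median island was methylated at 0.358% and 0.267% with DNMT3A and at 0.275% and 0% with DNMT3B, from 16 to 60 sites, so most single islands were too low to compare, and the test has little power for islands. The 3 islands with the smallest p in each direction are described here, although none passed.
The island at the start of Prdm16 (chr4:154634658-154638133), which encodes a zinc finger transcription factor of brown fat, stood at 5.08% and 6.83% with DNMT3A and at 0.409% and 0.379% with DNMT3B (change 3.57, SE 0.65, adjusted p = 0.0712, limma). The island inside Sema6c (chr3:95172191-95173874), which encodes a transmembrane semaphorin, stood at 7.32% and 9.23% against 0.179% and 0% (change 3.91, adjusted p = 0.0712), and that at the start of Tsc22d2 at 1.58% and 2.19% against 0.170% and 0% (change 2.57, adjusted p = 0.249). In all 3 the enzymes were separated, with DNMT3A higher. DNMT3B 1b and 2b stood at 2.12% and 1.32%, at 1.24% and 1.98% and at 0.505% and 0.888%.
In the other direction, the island at the start of Ankrd11, a chromatin regulator, stood at 0.157% and 0.0741% with DNMT3A and at 2.98% and 0% with DNMT3B (adjusted p = 0.389). At Arhgap10 the values were 0.25% and 0% against 1.72% and 6.22% (adjusted p = 0.532), and at Ubr3 0% and 0% against 6.12% and 0% (adjusted p = 0.507). DNMT3B 1b and 2b stood at 0.343% and 0.499% at Ankrd11, at 0% and 0.299% at Arhgap10 and at 0% and 0% at Ubr3, and against them the changes shrank from -2.29, -2.29 and -2.48 to -0.68, -0.26 and -0.23. DNMT3B 2a was listed at 0% at Ankrd11 and Ubr3 from 14 and 10 sites, and at Sema6c and Tsc22d2 from 41 and 74 sites. The fitted changes at these islands depend on the offset of 0.5 that was added to the counts.

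Promoters, taken as the sites within 1 kb of the start of a protein-coding gene, differed by an amount that depended on the scale. They were methylated at 5.76% and 6.14% with DNMT3A and at 2.71% and 2.61% with DNMT3B, a ratio of 2.24. The relative log2 odds differed by -0.35 ± 0.075 (SD over lines, exact permutation p = 0.33), while on the log2 scale of the level the difference was -0.013, and against sites of the same flank and density it was 0.0043.
Within the promoter the ratio changed with distance from the start. In the first 500 bp of the gene it was 1.91 (3.11% and 3.38% against 1.72% and 1.68%), and in the 500 bp before the start 2.10 (4.49% and 4.93% against 2.28% and 2.19%). It then rose to 2.46 from 500 bp to 1 kb and to 2.52 from 1 to 2 kb into the gene, and to 2.50 from 500 bp to 1 kb upstream. Beyond 5 kb on either side it returned to between 2.21 and 2.31.

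Inside genes, introns close to the start and coding exons were the parts that left the overall ratio. At intron sites 1 to 2 kb after the start the levels were 25.7% and 25.9% with DNMT3A and 10.0% and 9.71% with DNMT3B, a ratio of 2.62, and the relative level was higher with DNMT3A by 0.10 ± 0.048 (SD over lines), but by 0.0094 against DNMT3B 1b and 2b. Coding exons stood at 35.6% and 36.1% against 19.1% and 17.7%, a ratio of 1.95, and their relative level was lower with DNMT3A by 0.25 ± 0.017. Against sites of the same flank and CpG density the exon difference was -0.062.
Introns farther from the start had a ratio of 2.25 (42.4% and 42.3% against 19.4% and 18.2%), 3′ UTRs of 2.19 and intergenic DNA of 2.25 (38.0% and 37.9% against 17.4% and 16.3%).
Gene bodies as a whole, from 2 kb after the start to the end, could not be separated from intergenic DNA in a stable direction. The log2 odds of bodies over intergenic DNA were 0.16 and 0.17 with DNMT3A and 0.15 and 0.13 with DNMT3B, a difference of 0.026 ± 0.019 (SD over lines, exact permutation p = 0.33). It was 0.015 without DNMT3B 2a and 0.037 without DNMT3B 1a, but -0.12 against DNMT3B 1b and 2b and -0.056 at sites with at least 10 reads.
Along the gene, the ratio of the enzymes fell from 2.44 in the first decile to 2.26 in the middle (decile 5) and 2.15 in decile 9. Levels in the second decile were 38.8% and 38.7% with DNMT3A and 17.2% and 15.9% with DNMT3B, and in decile 9 42.3% and 42.3% against 20.3% and 19.1%. Methylation rose towards the end of genes with both enzymes, and the relative level did not follow the ratio at the start. It was lower with DNMT3A by 0.12 ± 0.044 (SD over lines) in the first decile, higher by 0.11 in the second and higher by 0.016 in decile 9. Against DNMT3B 1b and 2b these differences were -0.18, 0.11 and -0.060.

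**Figure D3:**
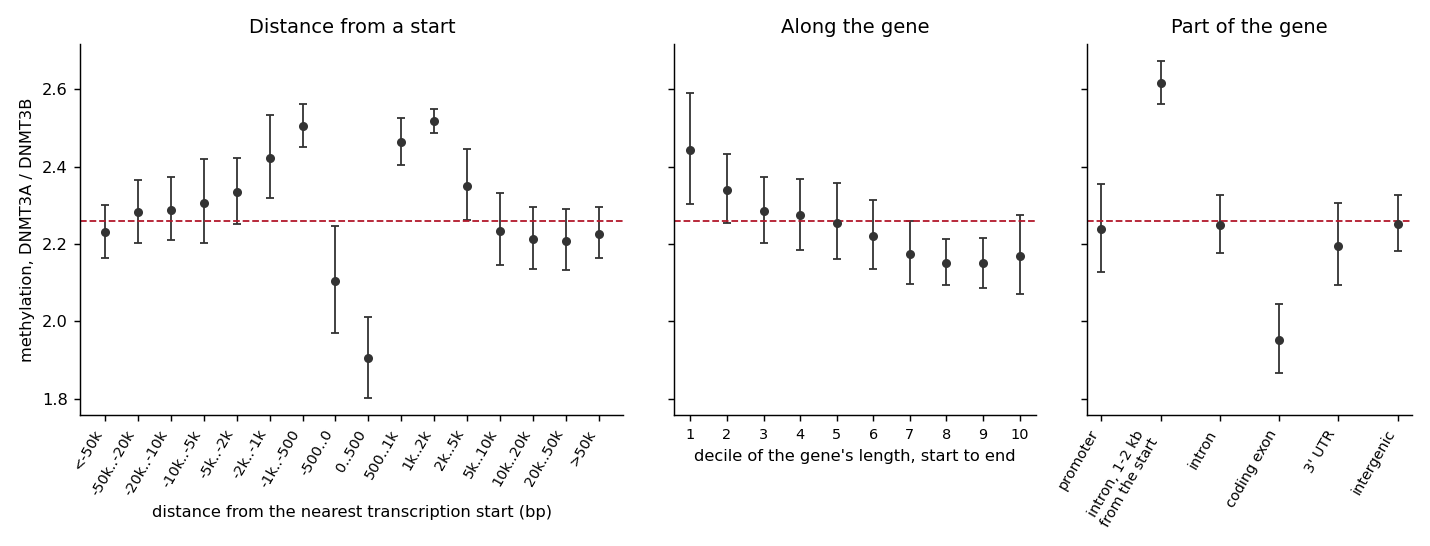
Ratio of CpG methylation with DNMT3A to that with DNMT3B by distance from the nearest transcription start (left), by decile of the gene's length (middle) and by part of the gene (right). Points are the ratio of the means, bars run from the lowest to the highest of the 4 pairs of lines, and the dashed line is the overall ratio of 2.26. The y axis does not start at 0. The ratio is lowest in the first 500 bp of genes (1.91) and in coding exons (1.95) and highest at intron sites 1 to 2 kb from the start (2.62).

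Large domains were compared in quintiles of GC content. GC-poor DNA holds few genes and is mostly late replicating and attached to the nuclear lamina. The quintile of 100-kb windows with the lowest GC content, below 38.3%, was methylated at 32.8% and 32.7% with DNMT3A and at 14.6% and 14% with DNMT3B 1a and 2a, and the quintile with the highest, above 45.3%, at 33.7% and 34.1% against 15.6% and 14.4%. The log2 odds of GC-rich over GC-poor domains were 0.054 and 0.088 with DNMT3A and 0.11 and 0.049 with DNMT3B. The lines overlapped, with a difference of -0.0064 ± 0.047 (SD over lines, exact permutation p = 1). With 1 line left out it ran from -0.035 (without DNMT3B 2a) to 0.023 (without DNMT3B 1a).
The other WT DNMT3B lines had another profile. In 1b and 2b the GC-poor quintile stood at 10.5% and 9.35% and the GC-rich quintile at 13.7% and 12.8%, and the log2 odds between them were 0.43 and 0.51. Those lines and lines 1a and 2a did not overlap, although they express the same enzyme, and the difference of DNMT3A from 1b and 2b was -0.40. Lines 1b and 2b are the WT lines that the study set beside the K777A and N779A mutants, and the set of lines and any effect of handling cannot be told apart. The same was seen over 100-kb windows, where the change between enzymes had a Pearson's r with GC content of 0.00071 over 19266 windows with 1a and 2a and of -0.27 over 19263 windows with 1b and 2b. These are descriptions over windows that share the lines.

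**Figure D4:**
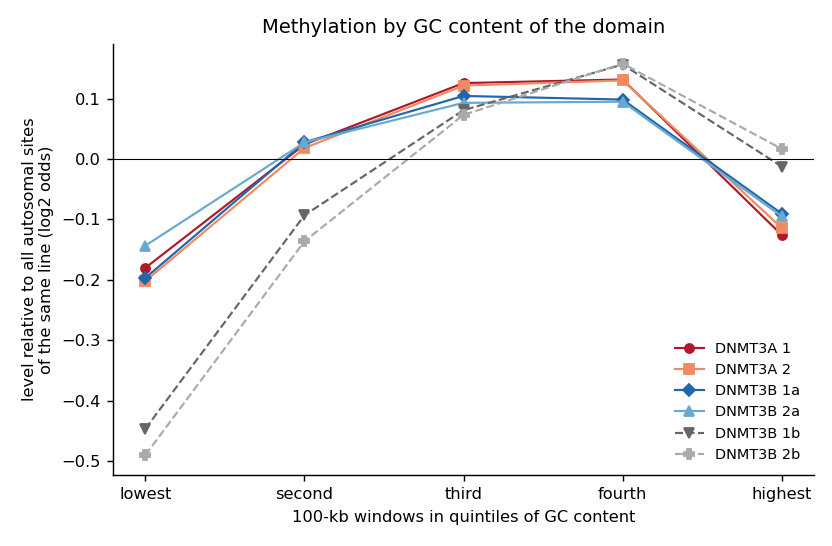
Relative CpG methylation (log2 odds of the class minus log2 odds of all covered autosomal sites of the same line) by quintile of GC content of 100-kb windows, for each DNMT3A and WT DNMT3B line. DNMT3A 1 and 2 and DNMT3B 1a and 2a (solid) run together, and DNMT3B 1b and 2b (dashed) lie below them in GC-poor windows and above them in the highest quintile.

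Gene bodies and intergenic DNA were also split by these quintiles. In gene bodies the ratio of DNMT3A to DNMT3B 1a and 2a was 2.38 in the GC-poorest quintile (35.1% and 35.2% against 15.0% and 14.5%) and 2.20 in the GC-richest (39.4% and 39.6% against 18.7% and 17.2%). In intergenic DNA it was 2.25 (32.4% and 32.1% against 14.6% and 14.1%) and 2.31 (40.3% and 40.2% against 17.8% and 17%). The difference in relative level thus went from 0.078 to 0.012 in bodies and from -0.060 to 0.11 in intergenic DNA. Against DNMT3B 1b and 2b it fell in both, from 0.28 to -0.083 and from 0.29 to 0.047.
Gene density gave small differences of the same order. In windows of 1 Mb with 20 or more genes the relative level was lower with DNMT3A by 0.086 ± 0.015 (SD over lines), and in windows with no gene the lines overlapped, with a difference of -0.035. Against DNMT3B 1b and 2b these differences were -0.16 and 0.25, and at CpG-sparse sites the lines overlapped in the windows with 20 or more genes (difference 0.017). In the last 2 Mb of chromosomes it was lower by 0.11 ± 0.014, at 30.6% and 31.1% against 14.5% and 13.4%. Between whole autosomes the difference in relative level ran from -0.060 on chromosome 7 to 0.041 on chromosome 16.

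No single domain passed the test. Of 19266 windows of 100 kb, 0 (0%) passed in limma, with 908 at an unadjusted p below 0.05, and edgeR called 0. The lines did not overlap at 7574 (39.3%), with 3818 higher and 3756 lower with DNMT3A. A random order of the lines would give a share of 0.33, here and for the other windows below. After the expected level of each window's flanks and CpG density was taken off, 0 (0%) passed with 805 below 0.05, and lines did not overlap at 7391 (38.4%). Of 2383 windows of 1 Mb, 0 (0%) passed in limma with 213 below 0.05, edgeR called 1, and lines did not overlap at 1064 (44.6%).
The DNMT3B lines varied more than the DNMT3A lines. Over 100-kb windows the pooled SD between lines was 0.546 for DNMT3B and 0.212 for DNMT3A. The centred values of the windows had an r of 0.38 between DNMT3B lines and of 0.82 between DNMT3A lines. DNMT3B 2a covered a median of 43 sites per window, against 218 to 268 in the other lines. How much of this spread comes from the number of sites and the lower level was not tested. Without DNMT3B 2a, 472 of 23763 windows of 100 kb and 110 of 2407 windows of 1 Mb passed, in fits that assume that the single line left varies like the DNMT3A lines. Without DNMT3B 1a they were 7694 of 19266 and 1037 of 2383.

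**Figure D5:**
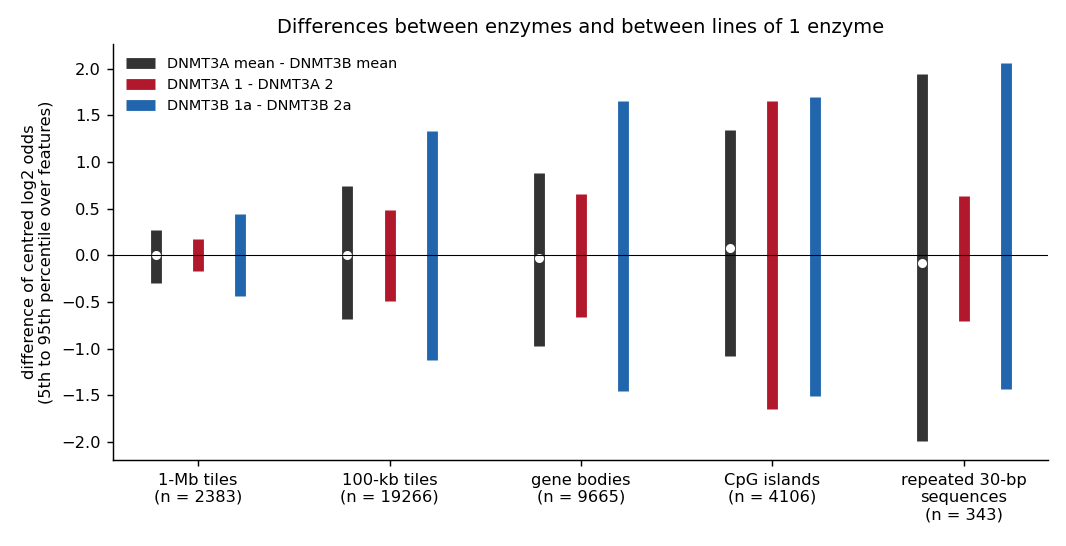
Differences in centred log2 odds over windows, gene bodies, CpG islands and repeated sequences, drawn from the 5th to the 95th percentile, between the mean of the DNMT3A and the mean of the DNMT3B lines (black, median as a white point), between the DNMT3A lines (red) and between the DNMT3B lines (blue). Black bars compare means of 2 lines and the coloured bars single lines. The black bar of repeated sequences runs from -1.99 to 1.94 and that of 1-Mb windows from -0.30 to 0.27, and in all kinds of feature but repeated sequences the DNMT3B lines differ from each other by more than the enzymes.

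The 1-Mb windows with the smallest p are given with their values, and none passed (adjusted p = 0.534 for all 6, limma). Of those lower with DNMT3A, the window of major urinary protein genes (Mup1, Mup2 and 8 others, chr4:60000001-61000000) stood at 30.2% and 29.8% with DNMT3A and at 18.8% and 17.2% with DNMT3B (change -0.61, SE 0.10). A window of olfactory receptor genes (chr7:106000001-107000000) stood at 31.9% and 31.8% against 18.8% and 17.7% (change -0.50), and one that holds the gene Gm10330 (chr12:23000001-24000000) at 22.5% and 24.6% against 14.1% and 14.9% (change -0.71). Set against DNMT3B 1b and 2b these changes were -0.30, -0.0034 and -0.56.
Of those higher with DNMT3A, the window of the neuronal sodium channel genes Scn2a and Scn3a (chr2:65000001-66000000) stood at 41.9% and 41.5% against 15.8% and 13.2% (change 0.52, SE 0.10). That of Trio, a guanine nucleotide exchange factor, and Dnah5, a dynein heavy chain (chr15:28000001-29000000), stood at 37.4% and 35.8% against 13% and 9.88% (change 0.60). That of Magi1, Slc25a26 and Lrig1 (chr6:94000001-95000000) stood at 44.1% and 44.5% against 18.5% and 17.1% (change 0.32). Against 1b and 2b the changes were 0.059, 0.32 and 0.16.
At 100 kb, the window of the chemokine receptor gene Ccr1 (chr9:123900001-124000000) was the one with the smallest p among those lower with DNMT3A. It stood at 23.0% and 18.2% with DNMT3A and at 18.9% and 27.8% with DNMT3B (change -1.80, SE 0.37, adjusted p = 0.779, limma), and DNMT3B 1b and 2b stood at 21.6% and 17.6%. The lines of the enzymes thus overlapped in plain level in this window. Next came the window of Arl6ip6 on chromosome 2, at 27.4% and 28.8% against 22.1% and 26.4% (change -1.31, and -0.72 against DNMT3B 1b and 2b at 20.2% and 9.58%), and a window without protein-coding genes on chromosome 3, at 33.4% and 29.3% against 25.0% and 30.9%. In the last window DNMT3B 1b and 2b stood at 10.9% and 8.87%, and the change of -1.36 became 0.056, the opposite direction.
Of those higher with DNMT3A, the window of Slc35f1 (chr10:53100001-53200000) stood at 51.2% and 50.0% against 11.3% and 9.62% (change 1.44, adjusted p = 0.779). The window of Lyn, a Src family kinase, stood at 48.3% and 47.9% against 12.5% and 8.02%, and one without protein-coding genes on chromosome 7 at 41.7% and 37.7% against 9.33% and 4.17%. Against DNMT3B 1b and 2b the changes of these 3 windows were 0.69, 0.45 and 0.27. DNMT3B 2a had 21 to 47 sites in these 6 windows, against 76 to 183 in the other lines of the comparison.
With flanks and density taken off, the windows of Ccr1, Slc35f1 and Lyn remained among the 6 with the smallest p. They were joined by a window with Pilra, Pilrb1 and Pilrb2, paired immunoglobulin-like receptors (31.3% and 31.3% against 24.3% and 30.5%), by a window on chromosome 6 without protein-coding genes (30.4% and 25.7% against 19.95% and 22.1%, but 9.15% and 8.05% in DNMT3B 1b and 2b, which turns the direction) and by a window inside Lrp1b (40.2% and 43.4% against 10.7% and 9.52%). None of these passed (adjusted p = 0.805, limma).

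Among single genes, 9665 of 20807 protein-coding gene bodies could be tested. In limma 0 (0%) passed, with 563 at an unadjusted p below 0.05, and edgeR called 0. Lines did not overlap at 3855 (39.9%), with 1722 (17.8%) higher and 2133 (22.1%) lower with DNMT3A, and a random order of the lines would give a share of 0.33. The median gene body stood at 41.7% and 41.7% with DNMT3A and at 19.1% and 16.9% with DNMT3B.
The genes with the smallest p did not pass (adjusted p = 0.746, limma). All but Cd9 had 11 to 50 sites in each line. The body of Cd9, which encodes a tetraspanin, stood at 32.4% and 30.1% with DNMT3A and at 28.2% and 29.3% with DNMT3B (change -1.50, SE 0.24). DNMT3B 1b and 2b stood at 4.92% and 10.5% there, which gives a change of 0.59, the opposite direction. Tsr1, a ribosome maturation factor, stood at 30.2% and 24.4% against 29.7% and 30.8% (change -1.89, and -0.52 against DNMT3B 1b and 2b at 9.13% and 14.5%), and Mapk15, an atypical MAP kinase, at 0.4% and 0% against 4.17% and 2.84% (change -3.66).
Of those higher with DNMT3A, Vgll2, a transcriptional cofactor of muscle, stood at 30.8% and 32.6% against 1.14% and 0.116% (change 2.79, SE 0.58), and Trim68, a ubiquitin ligase, at 46.3% and 40.5% against 1.93% and 1.82% (change 2.23). Tmem171 stood at 51.3% and 48.6% against 12.4% and 8.28% (change 1.18). DNMT3B 1b and 2b stood at 4.46% and 5% in Vgll2, at 4.97% and 27.6% in Trim68 and at 14.2% and 17.1% in Tmem171, and the changes against them were 0.92, 0.20 and 0.44.

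Lists of genes were described by their counts and median change, beside the median of -0.03 over all genes tested. No gene of any list passed, but with 2 lines per enzyme the test has little power for gene bodies, and this does not show that the levels did not differ. Of 151 genes of housekeeping complexes (proteasome, respiratory complex I, RNA polymerase II, chaperonin, splicing and translation initiation factors), 53 could be tested, with 7 higher and 13 lower without overlap and a median change of -0.12. The median was -0.34 without DNMT3B 2a, over 115 genes, and -0.20 against DNMT3B 1b and 2b. The share lower, 24.5%, was near the 22.1% of all genes. All 22 long neuronal genes could be tested, and their median change was -0.03, and 0.04 without DNMT3B 2a. Of them 4 were higher and 6 lower (18.2% and 27.3%, against 17.8% and 22.1% of all genes).
The long neuronal genes stood at medians of 33.9% and 35.2% with DNMT3A and 15.4% and 14.9% with DNMT3B 1a and 2a. The adhesion protein gene Cntnap2 stood at 31.0% and 30.7% against 14.1% and 13.7%, and Cdh13, a cadherin without a cytoplasmic part, at 46.4% and 46.2% against 24.5% and 22.3%. Changes ran from -0.23 in Fgf14, an intracellular regulator of sodium channels, to 0.20 in Opcml, a cell adhesion molecule. With DNMT3B 1b and 2b the medians of the list were 10.9% and 9.33% and the median change was 0.35.
Of 57 genes of the protocadherin clusters, which encode cell surface adhesion proteins of neurons, 35 could be tested. Of these 16 (45.7%) were higher and 2 (5.71%) lower without overlap, against 17.8% and 22.1% of all genes, with a median change of 0.15. Many of them share the same downstream exons, so they are not independent, and against DNMT3B 1b and 2b the median change was -0.14. It was 0.44 with flanks and density taken off. Their bodies stood at medians of 20.6% and 20.4% with DNMT3A and 7.64% and 5.69% with DNMT3B.
The Hox clusters, which encode homeobox factors of the body axis, were lower still, at medians of 12.9% and 12.9% against 3.48% and 6.96%. Of 39 Hox genes 12 could be tested, 0 were higher and 3 lower (25%, near the 22.1% of all genes). The median change was -0.16 with and 0.24 without DNMT3B 2a. With flanks and density taken off it was 0.14.
Of 385 zinc finger protein (Zfp) genes 121 could be tested, with 14 higher (11.6%) and 34 lower (28.1%) and a median change of -0.15. Against DNMT3B 1b and 2b it was -0.16, and with flanks and density taken off -0.07.
Receptor genes of smell were hardly covered in all 4 lines. Of 1128 olfactory receptor genes 4 could be tested, with 0 higher, 1 lower (25%) and a median change of -0.01. Of 327 vomeronasal receptor genes 11 could be tested, with 0 higher, 4 lower (36.4%, against 22.1% of all genes) and a median change of -0.34. Of the latter, Vmn2r55 stood at 21.6% and 18.9% with DNMT3A and at 27.6% and 19.5% with DNMT3B (change -1.91, SE 0.33, adjusted p = 0.746, limma), and DNMT3B 1b and 2b stood at 13.7% and 8.94%. Against these lines the median change of the vomeronasal list was 0.05. Without DNMT3B 2a, 88 olfactory and 111 vomeronasal receptor genes could be tested, with median changes of -0.13 and -0.40. With flanks and density taken off, the medians of the 4-line test were 0.10 and -0.23.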

How the data were processed

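CpG methylation was measured by eRRBS (digestion with MspI, BfaI and MseI, bisulfite treatment, 150-bp read pairs) in TKO mouse ES cells. The authors trimmed the reads, aligned them with Bismark to mm10/GRCm38, removed read pairs in which at least 3 cytosines outside CpG were methylated, collapsed both strands and deposited raw counts of methylated reads and of all reads for each line at 21867550 CpG sites. The submitters' processing notes name Bismark 0.18.1, Bowtie 1.2 and cutadapt version 1.12. Of the 12 lines, the WT DNMT3A pair and a WT DNMT3B pair were compared, the other WT DNMT3B pair served as an alternative, and the mutants, the non-CpG cytosines and the spike-in were not analysed here. Groups and replicate numbers are those of the labels.

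Methylation at each site was the share of its reads that were methylated, without a minimum depth, and a class or feature was the mean over its sites, so that deeply read repeats did not dominate. Mean depth was 4.03 to 15.8 reads per covered site in the 4 lines compared. No molecular identifiers were used, and errors are therefore the spread between lines. Sites were placed with GENCODE M21 genes and with islands found in the GRCm38 sequence (at least 500 bp, 55% GC and an observed to expected CpG ratio of 0.65). The expected level of a site was the mean of the same line over sites with the same 2 bases on either side and the same CpG density, drawn by 20 sites to the mean of the density class. Repeated sequences were taken from all autosomes but chromosome 18.

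Classes were compared by the exact two-sided permutation test over lines. Windows of 100 kb (at least 20 sites in each line) and 1 Mb (100 sites), gene bodies (10), islands (10) and repeated sequences (20) were tested in limma 3.58.1 (R 4.3.3) (moderated variances with a trend) on log2 odds with an offset of 0.5, each line centred on its median. P-values were adjusted over all features (Benjamini-Hochberg), and those under 0.05 were called. All adjusted p-values are from limma with 2 lines per enzyme. The script was checked on simulated data with known log2 changes of 1 or 2. At this number of lines it called none of them in gene bodies and islands, and none of the smaller ones in 100-kb windows and repeated sequences. Nearly all were called in 1-Mb windows. As 0 of 2383 measured 1-Mb windows changed by more than 1, the simulation did not cover differences of the measured size there. A count of 0 calls therefore does not show, for any kind of feature, that the enzymes did not differ. The text names the 5 features that changed most in each direction, of those that passed and did not overlap between enzymes, or, where none passed, the 3 with the smallest p in each direction. The lists of genes cover housekeeping complexes, long neuronal genes, olfactory and vomeronasal receptors, Zfp genes, protocadherins and Hox genes. Members, lists and rules were chosen with earlier results of these data known.

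Alternatives were a minimum of 5 or 10 reads, sites covered in all lines, pooled reads, CCGG sites left out, observed against expected levels, log2 levels, no centring, edgeR 4.0.16 on summed reads, DNMT3B 1b and 2b, each line left out and a replicate block. The replicate numbers do not pair lines: same-numbered lines had deviations with r from -0.065 to 0.046. Python 3.11.15 with numpy 2.4.6 and pandas 2.3.3 was used for all else.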

Additional observations from a re-analysis of the deposited data

Results flagged for a closer look

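Chromosomes X and Y were outside the comparisons above, and both enzymes methylated them. Mean CpG methylation of X was 33.8% ± 0.15 with DNMT3A and 14.9% ± 1.19 with DNMT3B (SD, n = 2 lines each), a ratio of 2.27. That of Y was 29.0% ± 0.65 and 13.6% ± 0.12, a ratio of 2.13.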

How the results depend on the processing

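Classes were recomputed under each setting, and the values are DNMT3A minus DNMT3B in relative log2 odds, or in percentage points for the overall level. The overall difference of 19.9 points was 17.6 at 10 reads and 22.5 against DNMT3B 1b and 2b. For islands (-1.19) it was -0.48 with flank and density taken off and -0.81 on log2 levels. For promoters (-0.35) it was -0.53 at 10 reads, -0.50 with pooled reads, -0.47 against 1b and 2b, -0.013 on log2 levels and, in the opposite direction, 0.0043 with flank and density taken off. For bodies against intergenic DNA (0.026) it was 0.0065 with pooled reads and reversed to -0.056 at 10 reads, -0.12 against 1b and 2b and -0.014 on log2 levels. Repeats against unique sequence (-0.066) reversed to 0.080 at 10 reads, and high-copy sequences (-0.21) stood at -0.40 at sites covered in all 4 lines. GC-rich against GC-poor domains (-0.0064) stood at -0.17 at 10 reads, -0.082 with pooled reads, 0.073 with flank and density taken off and -0.40 against 1b and 2b. CpG-dense sites (-1.04) moved by less than the spread between lines in every setting run, and so did all of these classes when CCGG sites were left out.

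Without centring, which leaves the overall difference in (a median change of 1.58 over 100-kb windows), 18238 windows of 100 kb, 2383 of 1 Mb, 7967 gene bodies and 188 repeated sequences were called. Calls with 1 line left out ran from 0 to 7694 of 100-kb windows (0 to 7285 with flank and density taken off), from 0 to 1037 of 1-Mb windows, from 0 to 2184 gene bodies, from 0 to 5 islands and from 0 to 327 repeated sequences. On the windows of the 4-line test, leaving out DNMT3B 2a gave 619 calls at 100 kb, 112 with flank and density taken off and 129 at 1 Mb. Against 1b and 2b there were 46 calls at 1 Mb and 153 of 809 repeated sequences, and at 5 reads 34 of 95 repeated sequences. edgeR called 1 window of 1 Mb, 1 island and 28 repeated sequences, and log2 levels 2 islands and 90 repeated sequences. With flank and density taken off, by all or by single-copy sites, 0 repeated sequences were called. With a replicate block there were 22 calls at 1 Mb, 6 islands and 123 repeated sequences, and 0 elsewhere. Log2 levels, the fits of DNMT3B 2a on the same windows and the expected levels of repeats and 1-Mb windows were chosen after seeing the data. In fits with 1 line left out, the enzyme with a single line adds nothing to the spread between lines, so their counts cannot be compared with those of the 4-line fits. The cause of these shifts was not tested. A minimum of 5 reads and edgeR were not run for windows with flank and density taken off.

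Named features that reversed did so without centring (the windows of Arl6ip6, 0.26, on chromosome 3, 0.22, of Mup genes, 0.95, of olfactory receptors, 1.05, and of Gm10330, 0.84, and Cd9, 0.14), in edgeR (olfactory receptors, 0.0038) or against 1b and 2b (the windows on chromosome 3, 0.056, and on chromosome 6, 0.28, and Cd9, 0.59). Single features rest on few sites in DNMT3B 2a, which covered a median of 43 sites per 100-kb window against 218 to 268 in the other lines.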
